A study of Mus musculus with 15 samples.

Results

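N6-methyladenosine (m6A) peaks that the authors annotated to exons of noncoding RNAs were examined in MPC5, an immortalised mouse podocyte line. Members were taken as every peak with that annotation in the authors' 3 lists of antibody-enriched over input RNA, 1 list per condition. They numbered 2056 of 22498 peaks in the control list, 2104 of 24626 in the sh-METTL3 list and 1959 of 27480 in the list from sh-METTL3 cells given glucose, or 6119 of 74604 in all. The control cells were wild type, grew in standard medium and received no virus. The second group, labelled a METTL3 knockdown, was given the sh-METTL3 virus. The third received that virus and then 72 hours of glucose, whose label of 25 µmol/L is printed as given and was not checked by any value here. Each condition had 5 samples, of which 2 were input RNA, 2 were antibody-enriched RNA and 1 named neither kind, and all 15 carry the same batch label. No group carried the virus without the shRNA, so virus and shRNA cannot be told apart, and no group received glucose alone.

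m6A is written on nascent RNA by a complex whose catalytic subunit is METTL3, mostly at a GGAC-type core motif. It is recognised by YTH-domain and other reader proteins. In messenger RNA it gathers near the stop codon and in long exons. Long noncoding RNAs carry it as well: Xist, which silences the inactive X chromosome, and Malat1, a nuclear speckle RNA, are classic examples, and in primary microRNA transcripts the mark has been linked to processing. Podocytes wrap the capillaries of the kidney filter.

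In the RNA table each condition had 1 library. Total counts were 54282720 (control), 53655982 (labelled sh-METTL3) and 52807701 (labelled sh-METTL3 and given glucose, here the glucose library). Mettl3 itself stood at 2.34, 2.42 and 2.49 FPKM (fragments scaled to transcript length and library size) in that order, so its RNA was not lower in the libraries labelled as knockdown. Of 10 podocyte markers 7 reached 1 FPKM in every library, and of the 7 with a mean of at least 1 FPKM 2 were at least 2-fold higher in sh-METTL3 than in control cells and 0 lower, with a median log2 ratio of 0.67. Against the same control the glucose library had 3 of them higher and 0 lower (median log2 ratio 0.93). Nphs1 (nephrin, of the slit diaphragm) stood at 3.35, 1.37 and 1.85 FPKM, and Synpo (synaptopodin, an actin-binding protein) at 1.19, 8.59 and 11.7. The 4 tubular markers were present in every library: Lrp2 stood at 2.05, 14.6 and 7.86 FPKM, Aqp1 at 2.29, 36.9 and 3.42, Cdh16 at 41.6, 87.1 and 46.2, and Pax8 at 13.0, 33.2 and 30.1. The part of such shifts in cell state in the results was not tested. With 1 list and 1 library per condition no spread between replicates could be measured, intervals cover counting error only, and differences in RNA between whole cultures cannot separate cell number from RNA per cell.

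The sequences below show the motif where sequence and peak could be joined. RefSeq windows of 300 bases around gene starts (build GRCm38.p6) lay wholly inside a member peak of all 3 lists in 19 cases, and 6 of these held GGACT. They were chosen after their values were seen. Each is printed as 30 bases on the RNA strand, 5′ to 3′, with GGACT in capitals.
Trmt61b: tccctttccagaGGACTcttttcagtcggg
Gm9958: gacctcctggatGGACTtttcctgcctggc
Gm36371: tgttcaagcgctGGACTtccgtggttagat
Gm42984: aggtactgaaagGGACTgtgctctctagct
4930417H01Rik: cgcgccagctccGGACTcggcggtgctcgg
9530082P21Rik: atttgccattctGGACTaggttggtaattc

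These sites lie on the minus strand at chr17:71598305-71598334 (Trmt61b) and on the plus strand at chr5:90366888-90366917 (Gm9958), chr7:6157064-6157093 (Gm36371), chr5:44231045-44231074 (Gm42984), chr2:122702544-122702573 (4930417H01Rik) and chr17:23749148-23749177 (9530082P21Rik). The motif began 41 bases (Trmt61b) to 143 bases (Gm36371) before the RefSeq start of the gene. The window for Gm42984 belongs to a RefSeq gene of another symbol, Gm35959, and its motif lay 106 bases before that start. The peaks thus reached upstream of the RefSeq starts. Fold enrichment, the authors' ratio of enriched to input RNA for each peak, was 13.4, 11.4 and 13.1 for the Gm9958 peak in the control, sh-METTL3 and glucose lists. For Gm36371 it was 11.0, 23.9 and 13.1, and for Trmt61b 14.4, 7.70 and 6.54. Over all windows wholly inside a member peak, GGACT was present in 26.5% of 34 windows in the control list, 31.0% of 84 in the sh-METTL3 list and 28.8% of 66 in the glucose list. Among all 32851 RefSeq start windows the share was 26.1%. The reverse complement AGTCC, searched on the same strand, was present in 20.6%, 20.2% and 27.3% of the member windows and in 8533 of all windows. The member shares for GGACT have intervals from 14.6% to 43.1%, from 22.1% to 41.5% and from 19.3% to 40.6%, and each contains the share in all windows. A match shows that the letters are present, not that the base is methylated.

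Hairpins of microRNAs lay wholly inside a member peak in 13 of 1005 cases, with 7 in the control list, 6 in the sh-METTL3 list and 12 in the glucose list. Mature sequences are shown for 6 of them, picked after their values were seen, with the seed (bases 2 to 8, which pair with targets) in capitals.
mmu-miR-194-5p: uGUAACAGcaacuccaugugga
mmu-miR-101a-3p: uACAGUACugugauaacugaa
mmu-miR-125b-5p: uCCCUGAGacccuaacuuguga
mmu-miR-6340: gUCAGCAGcagcuucgcuuuggc
mmu-miR-6244: gGGGGCGUggaauuaucgggu
mmu-miR-6363: uGUAGACUggacuguccucaaa

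None of the mature microRNAs from the 13 hairpins shared a seed with another. Mir194-1 and Mir215, which are made from 1 primary transcript, lay in peaks of 1438 bases at fold enrichment 15.6 (sh-METTL3 list, Mir194-1 alone) and 1587 bases at 11.1 (glucose list, both). Mir101a lay in a peak spanning 10205 bases at fold enrichment 9.36 in the sh-METTL3 list and 5.46 in the glucose list. Mir125b-1, hosted by Mir100hg, was covered in the glucose list alone, at fold enrichment 3.42. Mir6340, Mir6244 and Mir6363 had a peak in every list whose ends were exactly those of the hairpin. For Mir6340 it had fold enrichment 4.06, 5.33 and 3.72 in the control, sh-METTL3 and glucose lists, and for Mir6244 5.26, 4.97 and 4.02. Mir6340, Mir6244 and Mir6363 had no value in the RNA table.

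Noncoding exons held 9.14% of the control peaks (95% Wilson interval 8.77 to 9.52), 8.54% of the sh-METTL3 peaks (8.20 to 8.90) and 7.13% of the glucose peaks (6.83 to 7.44). Peaks in 3′ UTRs made up 52.6%, 51.2% and 50.1%. Against the control list, the number of noncoding exonic peaks was 2.33% larger in the sh-METTL3 list and changed by -4.72% in the glucose list. In the glucose list peaks of the other classes were more numerous than in the control list, by 16.5% in 3′ UTRs, 24.9% in coding exons, 44.9% in 5′ UTRs and 67.2% in introns. Over all listed peaks, noncoding exons were the single class of these 5 with a smaller number. This did not hold at fold enrichment 4 or more with an adjusted p under 0.001. There the control and glucose lists had 780 and 616 members, 6174 and 6111 peaks in 3′ UTRs, and 1910 and 1814 in coding exons. Peaks in 5′ UTRs (1460 and 1815) and introns (174 and 286) were still more numerous in the glucose list. Without replicate lists these differences have no test.

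Median fold enrichment of the members was 7.65 in the control list, 7.28 in the sh-METTL3 list and 6.54 in the glucose list. Within each list this was the highest median of the 5 classes, 3′ UTR peaks standing at 5.86, 5.59 and 4.92. These medians were not matched for RNA level. Under 0.1 FPKM in the control, median fold enrichment was 8.05 for long noncoding genes and 8.61 for genes with a coding transcript. From 1 to 10 FPKM it was 6.53 and 5.46. In the other lists too, the coding median was the higher under 0.1 FPKM and the lower from 1 FPKM upward. A smaller share of the members passed the authors' adjusted p under 0.05, with 73.2%, 73.7% and 72.0% against 88.0%, 87.9% and 85.6% in 3′ UTRs, and the intervals do not overlap. Intronic peaks stood lower still, at 58.1%, 55.9% and 62.5%. Fold enrichments recurred among the members. The 5 most frequent fold enrichments of the control list (6.70, 7.65, 8.61, 9.57 and 10.5) were carried by 29.6% of members and 9.23% of 3′ UTR peaks. In the sh-METTL3 list the corresponding shares were 27.8% and 9.45%, and in the glucose list 26.2% and 10.9%. Intronic peaks carried the recurring values in 32.5%, 34.2% and 26.1%. The control median is itself one of these recurring values, as is the sh-METTL3 median, so fine differences between the medians carry little resolution.

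**Figure D1:**
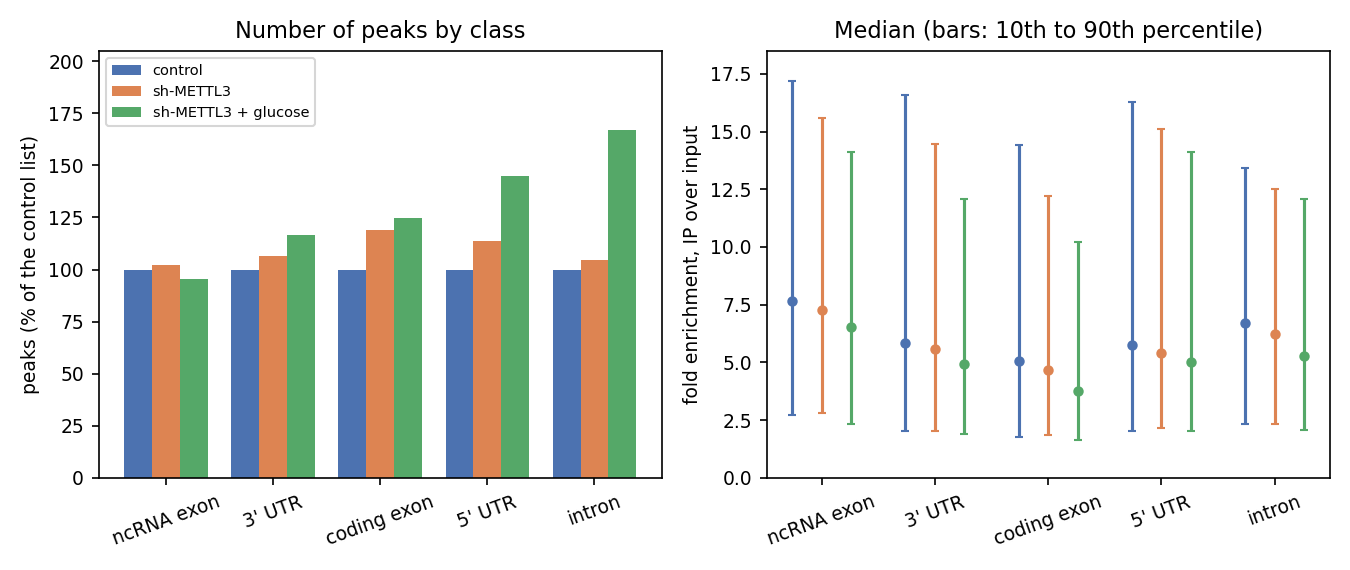
Left, number of peaks of each annotation class in each list as a percentage of the control list; right, median fold enrichment with bars from the 10th to the 90th percentile. Over all listed peaks, noncoding exons are the class with fewer in the glucose list than in the control list (2056 and 1959). They have the highest median in every list.

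The host genes were a mixture of RNA types. In the control list antisense transcripts hosted 28.6% of the members, pseudogenes 21.7%, intergenic long noncoding RNAs (lincRNAs) 19.3%, transcripts that the annotation marks as awaiting experimental evidence (TEC) 8.90% and bidirectional promoter transcripts 6.52%. Small or ribosomal RNAs hosted 0.973%. In the glucose list antisense transcripts hosted 30.1%, pseudogenes 23.3%, TEC transcripts 7.04% and bidirectional promoter transcripts 6.23%. Over the 3 lists 1994 genes hosted a member, and 885 of them (44.4%) did so in every list. Most genes had 1 peak, as did 970 of 1402 in the control list, 1053 of 1437 in the sh-METTL3 list and 1015 of 1369 in the glucose list. Pseudogenes share sequence with their parent genes, and the sources used here do not say how shared reads were counted, so their values are uncertain.

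Presence of a peak followed RNA level up to a point. Among long noncoding genes of the RNA table in the control, a member peak was present in 13.6% of 3249 genes under 0.1 FPKM, 33.1% of 1134 genes from 0.1 to 1, 41.6% of 262 genes from 1 to 10 and 41.0% of 39 genes of at least 10 FPKM. Genes with a coding transcript carried a peak of any class in 20.4%, 71.3%, 82.7% and 73.2% over the same levels. Pseudogenes carried a member peak in 4.04%, 9.76%, 11.0% and 11.0%. In the glucose library the long noncoding shares were 9.22%, 33.0%, 53.6% and 55.2%. The coding shares there were 8.59%, 57.7%, 90.4% and 88.0%. In every control bin the coding share was the higher and the intervals of the 2 kinds did not overlap. In the glucose library under 0.1 FPKM the long noncoding share was the higher, and the intervals overlapped (8.24 to 10.3 against 7.58 to 9.73). Exon length was not matched between them.

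**Figure D2:**
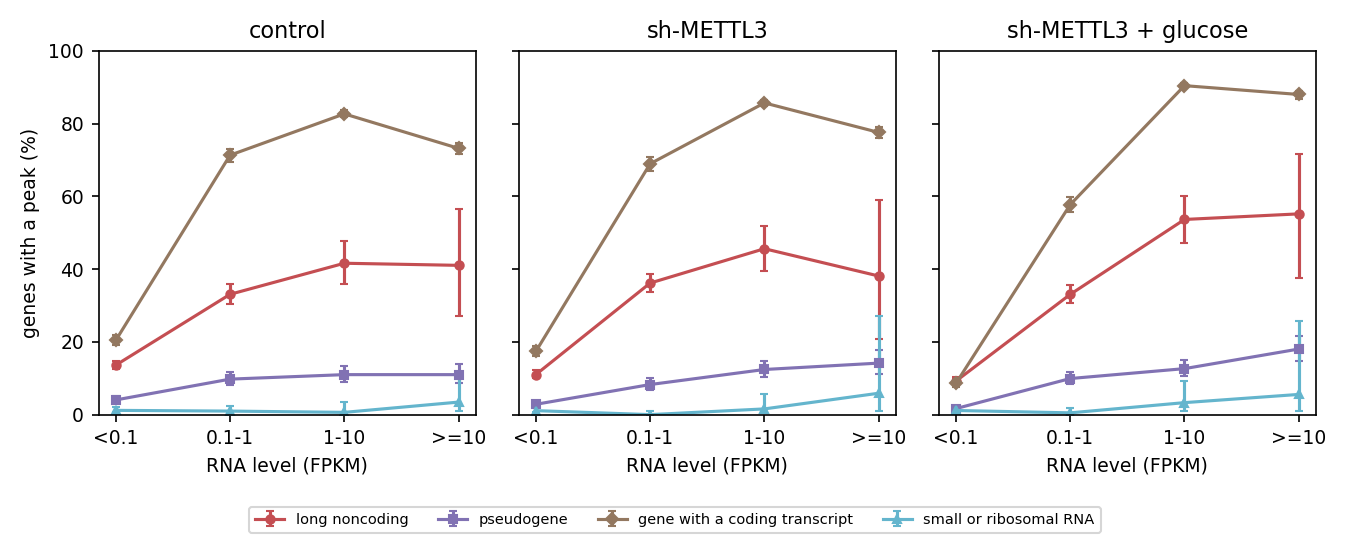
Share of genes with a peak by RNA level (FPKM) in each condition, with 95% Wilson intervals; noncoding kinds are counted by peaks in noncoding exons and coding genes by peaks of any class. In the control, long noncoding genes go from 13.6% to 41.0% and coding genes from 20.4% to 73.2% from the lowest to the highest level.

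Some members lay in genes with hardly any RNA. In the control 216 of 1918 members with a host in the RNA table (11.3%) had a host with 0 counts, and 297 more (15.5%) had a host with 1 to 9 counts. The shares at 0 counts were 5.49% in the sh-METTL3 list and 6.38% in the glucose list. Median fold enrichment in the control was 7.65 at hosts with 0 counts and 7.65 at hosts with 10 counts or more. In the sh-METTL3 list it was 7.28 at both, and in the glucose list 5.53 and 7.04. Of the members at 0 counts 62.0% passed the adjusted p in the control list, 61.7% in the sh-METTL3 list and 73.0% in the glucose list. At 10 counts or more 75.9%, 74.9% and 72.2% did so.

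Along long genes the shorter members gathered at both ends. Among members of at most 1000 bases in genes of at least 2000 bases, 34.4% of 1018 control peaks had their midpoint in the first 25% of the gene span and 39.5% in the last 25%, with 13.2% and 13.0% in the parts between. In the sh-METTL3 list the first and last parts held 34.7% and 40.7% of 875 peaks, and in the glucose list 36.4% and 39.2% of 748. Over all members, without limits on length, the spread was flatter. The parts from first to last then held 26.8%, 23.6%, 18.9% and 30.8% in the control list. In the glucose list they held 24.8%, 29.3%, 19.1% and 26.8%. Also without such limits, peaks in 3′ UTRs lay in the last part in 82.3% of control cases and those in 5′ UTRs in the first part in 76.6%. The genomic span includes introns and exon density was not taken into account. Peaks covering at least 90% of their gene made up 8.37% of the members in the control list, 16.5% in the sh-METTL3 list and 18.1% in the glucose list, against 0.972%, 1.71% and 1.49% in 3′ UTRs.

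Members often lay opposite another peak. A peak on the other strand overlapped 30.4% of the members in the control list, 31.2% in the sh-METTL3 list and 35.2% in the glucose list, against 8.47%, 8.24% and 8.30% of 3′ UTR peaks and 10.7%, 10.2% and 10.2% of 5′ UTR peaks. Among members in antisense hosts the share was 52.0%, 53.5% and 60.6%, and among those in lincRNAs 12.6%, 12.7% and 12.2%. The opposite peak was in a 3′ UTR in 38.4% of 747 control pairs and in a 5′ UTR in 28.2%. At hosts with 0 counts an opposite peak was present for 42.1%, 48.6% and 78.3% of members. At hosts with 10 counts or more it was present for 22.1%, 21.0% and 23.9%.

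**Figure D3:**
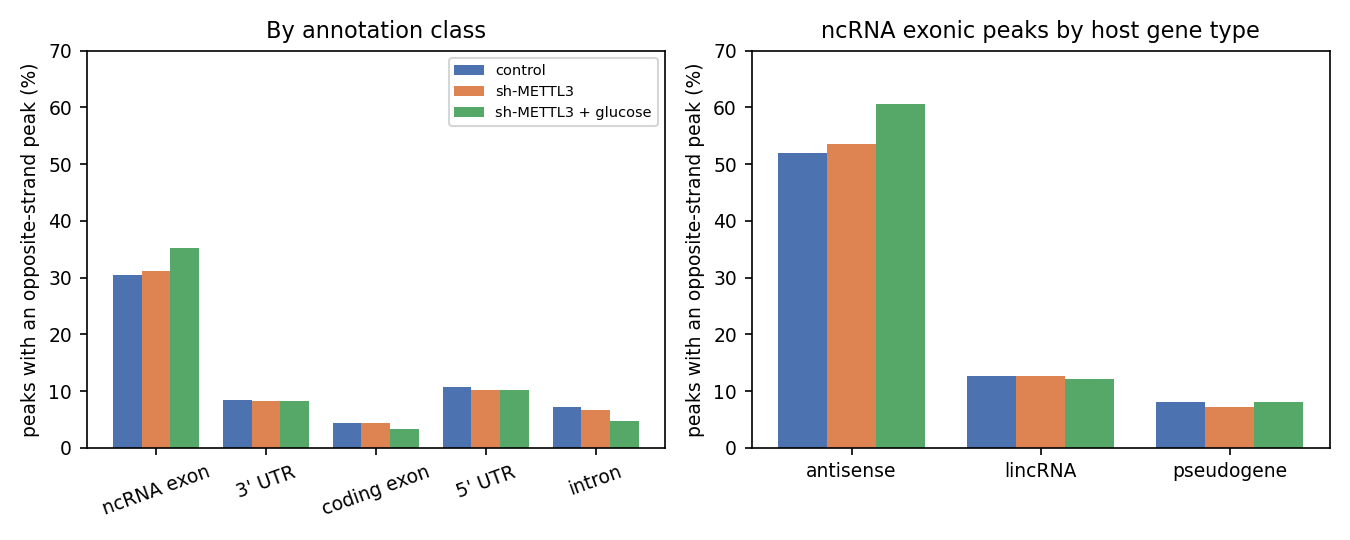
Percentage of peaks that overlap a peak on the opposite strand, by annotation class (left) and, for noncoding exonic peaks, by type of host gene (right), in each list. Noncoding exonic peaks reach 30.4% to 35.2%, and those in antisense hosts 52.0% to 60.6%.

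Where the peaks on both strands covered nearly the same bases their values were often nearly equal. Of 95 control pairs in which a member and a peak of another class each overlapped by at least 80%, 47 (49.5%) had fold enrichments within 5% of each other, as did 53 of 92 (57.6%) in the sh-METTL3 list and 42 of 94 (44.7%) in the glucose list. The peak of Ino80dos had fold enrichment 25.8 in the control list, and the peak of Ino80d on the other strand had 25.8. In the glucose list the peak of D030062O11Rik had 61.0 and that of Tbx18, a T-box transcription factor, 61.7. The host RNA counts in these cases were unequal, with 61 for Ino80dos against 2709 for Ino80d, and 80 for D030062O11Rik against 953 for Tbx18. Other pairs had unlike fold enrichments, such as 22 for D930007J09Rik against 13.4 for Wrnip1 in the control list. In the sh-METTL3 list 9930014A18Rik had 31.2 and Lratd2 had 4.68. The labels describe libraries that mark the strand, but the sources used here do not say whether peaks were called by strand. For members with such a partner the deposited values do not tell which strand the reads came from.

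A smaller share of members than of 3′ UTR peaks was found again in another list. A same-strand peak overlapping by at least 1 base was present in the sh-METTL3 list for 75.1% of control members (73.2 to 76.9) and in the glucose list for 64.8% (62.7 to 66.8). Control 3′ UTR peaks were found again in 86.9% and 86.4%. Of the sh-METTL3 members 74.3% were matched in the control list and 69.4% in the glucose list. Of the glucose members 66.1% were matched in the control list and 70.8% in the sh-METTL3 list. The members were not the lowest class in every direction. Glucose peaks in 5′ UTRs were matched in 60.8% and 67.4%, and those in introns in 32.7% and 37.3%. Control peaks in 5′ UTRs were matched in 83.8% in the sh-METTL3 list and 85.2% in the glucose list. Strong members were mostly matched: with fold enrichment 4 or more at an adjusted p under 0.001, 95.5% of 780 control members had a partner in the sh-METTL3 list and 84.9% in the glucose list, against 98.4% and 96.2% of such 3′ UTR peaks.

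Joined over the 3 lists, the members formed 2627 loci. Of these 983 (37.4%) had a peak in all 3 lists, 351 in the control list alone, 298 in the sh-METTL3 list alone and 431 in the glucose list alone. A further 279 were shared by the control and sh-METTL3 lists, 178 by the sh-METTL3 and glucose lists and 107 by the control and glucose lists. At least 1 peak passed the adjusted p in 99.0% of the loci found in all 3 lists. It did so in 36.8% of the loci of the control list alone, 33.6% of the sh-METTL3 list alone and 50.8% of the glucose list alone. Bidirectional promoter transcripts were found in all 3 lists at 52.3% of 132 loci, antisense transcripts at 40.7% of 766, lincRNAs at 37.8% of 495 and pseudogenes at 32.9% of 604. Loci found in the control list alone or the sh-METTL3 list alone thus mostly missed the adjusted p, and absence from a list is not absence of the mark.

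**Figure D4:**
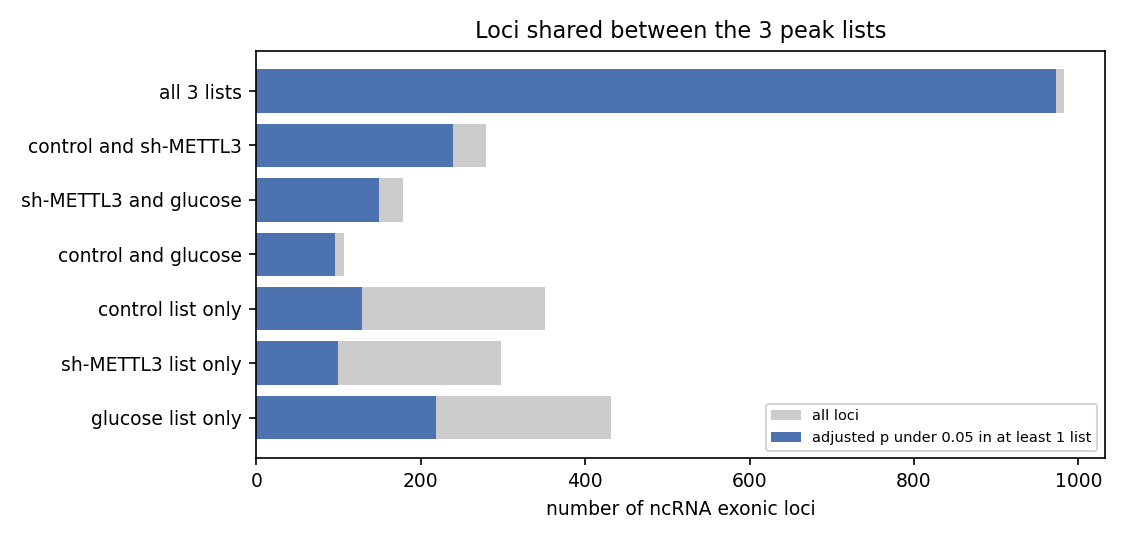
Number of noncoding exonic loci by the lists in which they have a peak (grey), and those with at least 1 peak at an adjusted p under 0.05 (blue). The 983 loci of all 3 lists are nearly all blue (973), while the control list alone has 129 of 351.

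Individual peaks spanned a wide range. The highest was that of Gm7292, a lincRNA, at chr6:117716342-117717174 on the plus strand, with fold enrichment 407 in the control list, 7.28 in the sh-METTL3 list and 7.04 in the glucose list. Its RNA stood at 3.34, 6.39 and 5.21 FPKM. The peak was lower in sh-METTL3 than in control cells in the authors' deposited table, with a log2 fold change of -4.74 and an adjusted p of 8.32e-05. For glucose against control the authors' deposited table gave -4.72, with an adjusted p of 0.0038.

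The peak at the 3′ end of Xist, at chrX:103460396-103460845 on the minus strand in the control list, had fold enrichment 123, 29.1 and 127 in the control, sh-METTL3 and glucose lists. Xist RNA stood at 46.7, 67.9 and 55.2 FPKM. This peak was lower in glucose than in control cells in the authors' deposited table, with a log2 fold change of -0.94 and an adjusted p of 5.01e-86, although the listed fold enrichments were 123 and 127. The deposited list and table thus differ here in direction. For sh-METTL3 against control, and for glucose against sh-METTL3, the authors' deposited tables had no noncoding exonic entry over this Xist region. The lower listed value in the sh-METTL3 list is thus not backed by a deposited call, and a missing entry does not show that the peak was unchanged. Signs were compared for the noncoding exonic entries of the authors' deposited tables that had a peak in both lists of a pair, with no adjusted p required. The deposited sign matched that of the listed ratio for 95 of 112 such entries in sh-METTL3 against control. It did so for 229 of 271 in glucose against control and 121 of 144 in glucose against sh-METTL3.

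Gm48226, a bidirectional promoter transcript, had fold enrichment 143, 62.7 and 46.1 in the 3 lists, with RNA at 1.38, 0.621 and 0.385 FPKM. 5031425E22Rik, a lincRNA, had 90.9, 41.6 and 87.5 near its start. Gm10382, an antisense transcript, had 12.9, 32.0 and 106 while its RNA stood at 17.8, 1.56 and 1.05 FPKM. Enrichment was highest there in the library with the least RNA. Cdk19os, the antisense transcript of the Mediator kinase gene Cdk19, had fold enrichment 44.0, 25.0 and 94.6 with 23, 0 and 0 counts of RNA. Zxda, typed as a pseudogene from the RNA table, had 10.5 in the control list and 179 in the sh-METTL3 list. It had no peak in the glucose list at 3.13 FPKM. Its peak was lower in glucose than in sh-METTL3 cells in the authors' deposited table, with a log2 fold change of -9.09 and an adjusted p of 1e-24. Gm5641, a pseudogene, had 37.3, 20.8 and 150, with RNA at 50.0, 60.7 and 46.3 FPKM. Of the other peaks among the highest of a list, Gm5165 had 90.9, 34.3 and 14.1, Thap6 69.1, 87.9 and 60.4, Gm10232 19.5, 76.0 and 19.1, and Gm11131 23.9, 54.1 and 38.2. Thap6 was thus high in every list, at 0.205, 1.00 and 0.712 FPKM.

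**Figure D5:**
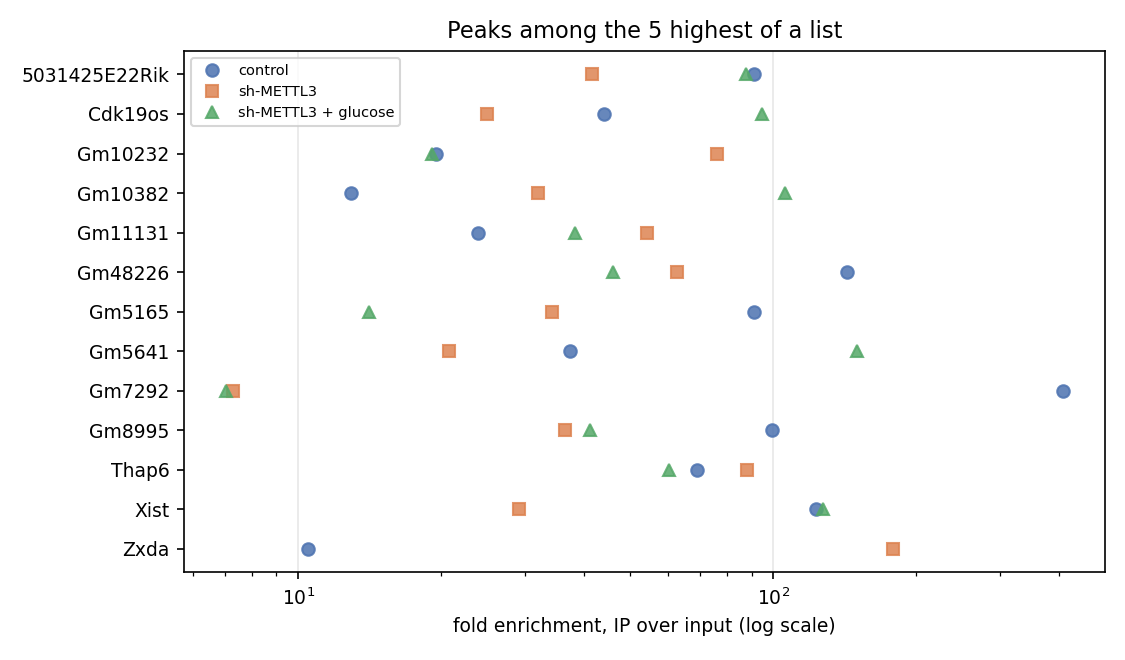
Fold enrichment (log scale) in each list of the peaks that rank among the 5 highest noncoding exonic peaks of any list. Gm7292 lies at 407 in the control list and near 7 in the others, Xist at 123, 29.1 and 127, and Zxda has no point in the glucose list.

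Of 14 names listed for nuclear architecture and related long noncoding RNAs, 10 carried member peaks, all 10 in every list, with 40, 34 and 43 peaks in the control, sh-METTL3 and glucose lists. Malat1 had 6, 4 and 5 peaks. Its strongest region, spanning 1799 bases near 12.9% of the gene's length, had a maximum fold enrichment of 11.7, 10.4 and 11.8, while Malat1 RNA stood at 60.5, 69.2 and 32.7 FPKM. The values in that region were alike in the 3 lists although RNA was lower in the glucose library.

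Neat1, the scaffold of paraspeckles, had 8, 7 and 7 peaks in 3 regions, the farthest centred at 14.4% of the gene's length. The peak nearest its start, at chr19:5845060-5845476 on the minus strand in the sh-METTL3 list, had fold enrichment 6.14, 7.66 and 15.4 in the 3 lists. In the authors' deposited table it was higher in sh-METTL3 than in control cells (log2 fold change 0.33, adjusted p 9.33e-05) and higher in glucose than in control cells (0.71, adjusted p 1.26e-20). Between glucose and sh-METTL3 cells the authors' deposited table gave a log2 fold change of 0.39 and an adjusted p of 1.1e-05. Neat1 RNA stood at 8.30, 8.58 and 6.57 FPKM. A second region, at 8.01% of the gene's length, had a maximum of 10.1, 9.27 and 8.34. For a peak there (chr19:5843140-5844596) the authors' deposited table gave a log2 fold change of 0.34 in sh-METTL3 against control with an adjusted p of 7.94e-15, opposite in sign to the listed maxima.

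Xist had 7, 5 and 9 peaks. Besides the 3′ end, a region near its start had fold enrichment 12.6, 14.9 and 9.82. Tsix, the antisense repressor of Xist, had a peak over nearly the same bases on the other strand with 12.7, 15.2 and 9.94. Both were, in the authors' deposited table, lower in glucose than in control cells, with a log2 fold change of -0.41 for each and adjusted p of 1.58e-23 for Xist and 1e-23 for Tsix. Tsix had no value in the RNA table. The deposited values do not tell which strand the reads of these overlapping Xist and Tsix peaks came from. Of the other RNAs of the X inactivation centre, Jpx had 5, 4 and 3 peaks at 0.170 FPKM in the control, and Ftx 1 peak per list at 15.3, 10.4 and 12.1.

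Firre, which anchors chromosomal contacts, had 1, 4 and 4 peaks with a maximum fold enrichment of 13.4, 12.5 and 15.1. Kcnq1ot1, the silencing RNA of an imprinted cluster, had 4, 3 and 8 peaks, with a region at 1.24% of its length at 11.5, 16.6 and 9.05. Of the 11 imprinted RNAs listed it alone carried a peak. The 5 of that list in the RNA table included H19, listed at 0 counts in the control. 2900097C17Rik, the mouse Norad gene whose RNA is largely cytoplasmic and which the list also holds as Norad, had its strongest control peak at 14.7, with 11.4 and 9.18 in the same region of the other lists. Hotair had 2, 1 and 1 peaks. A second region of 2900097C17Rik had 7.97, 4.94 and 18.1. For a peak covering parts of both regions the authors' deposited table gave a log2 fold change of -0.39 in glucose against control cells, with an adjusted p of 0.00398.

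Of 30 names listed as hosts of small nucleolar RNAs and microRNAs, 11 carried a member peak and 6 did so in every list, while 9 without one exceeded 1 FPKM. Snhg4 and Rabggtb, which have coding transcripts, had no member peak but had peaks of other classes. Gas5, a growth arrest transcript that hosts small nucleolar RNAs, had 1, 0 and 1 peaks with fold enrichment 8.61 and 10.1 in the control and glucose lists, at 134, 31.9 and 45.1 FPKM. Zfas1, another such host, had 1, 0 and 1 peaks at 1.89 and 1.83, with RNA at 90.9, 12.6 and 35.3 FPKM. Snhg1 had none at 145, 35.5 and 43.9 FPKM, and Snhg12 none at 39.2, 3.56 and 10.5. Snhg15 had 1 peak per list at 3.35, 4.73 and 4.15. Epb41l4aos likewise had 1 at 1.67, 1.97 and 2.00, with RNA at 47.2, 9.27 and 16.6 FPKM. In the glucose list alone Snhg6 had a peak at 1.18 and Snhg20 at 1.78, and Snhg16 had 1 as well. Snhg17 had 3, 2 and 3. In the authors' deposited table its peak at chr2:158355762-158355941 on the minus strand was higher in glucose than in sh-METTL3 cells, with a log2 fold change of 1.19 and an adjusted p of 3.98e-05.

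RNA of these hosts was lower in both libraries that received the virus. Of 19 listed hosts with a mean of at least 1 FPKM, 14 were at least 2-fold lower in sh-METTL3 than in control cells and 1 was higher, against 8.01% lower and 11.4% higher of all genes. The counts for glucose against control were 14 and 1, against 3.68% and 8.25% of all genes. Their median log2 ratio was -1.60 and -1.45, against 0.10 and 0.16 over all 11591 genes. The 5 structured RNAs that passed the same filter, among them Rn7sk and Rmrp, were each at least 2-fold lower in sh-METTL3 and in glucose cells than in the control, with medians of -3.90 and -3.58. Rn7sk, which holds back transcription elongation, stood at 185, 5.54 and 6.56 FPKM. Rpph1, at 19.5, 0.374 and 1.31 FPKM, is on both lists. It was counted among the 14 lower hosts as well as the 5 structured RNAs. Structured RNAs carried 0 member peaks. The labels state that poly(A) RNA was selected, and the part of RNA selection in these differences was not tested.

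Mir22hg, host of a single microRNA, had fold enrichment 4.95, 7.86 and 4.78 with RNA at 0.896, 6.14 and 3.15 FPKM. Its main peak was, in the authors' deposited table, lower in glucose than in sh-METTL3 cells, with a log2 fold change of -1.17 and an adjusted p of 0.00155. Dleu2, a microRNA host deleted in leukaemia, had a maximum of 24.9, 11.4 and 6.04. Mirt1, a name on the same list, had 1, 2 and 2 peaks with a maximum of 2.23, 2.22 and 3.75.

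Growth control and developmental RNAs varied from gene to gene. Pvt1, the neighbour of Myc, had 2, 3 and 5 peaks. The peak at its 5′ end, with fold enrichment 1.64 in the control list, no peak in the sh-METTL3 list and 3.65 in the glucose list, was in the authors' deposited table higher in glucose than in sh-METTL3 cells, with a log2 fold change of 0.97 and an adjusted p of 0.0257. Trp53cor1, a p53 target, had 3, 3 and 1 peaks with a maximum of 12.4, 25.0 and 7.04. Morrbid, which controls the survival of short-lived myeloid cells, had 3, 5 and 2 with a maximum of 8.61, 20.8 and 11.1 at 0.161, 0.0977 and 0.175 FPKM. Lncpint, a p53-induced RNA, had 1, 0 and 2 peaks. Fendrr, needed in mesoderm, had 4 peaks in every list, the strongest at 10.9, 12.0 and 12.0. A weaker Fendrr peak at chr8:121059948-121060547 on the minus strand was higher in glucose than in control cells in the authors' deposited table, with a log2 fold change of 1.40 and an adjusted p of 1.51e-06. Hotairm1, an antisense RNA of the HoxA cluster, had 2, 3 and 4 peaks with a maximum of 2.39, 2.91 and 6.47, and Oip5os1 had its strongest at 10.5, 10.3 and 8.89. Lncenc1 had 2, 3 and 3 peaks with a maximum of 11.5, 8.96 and 12.1. Crnde had 0, 1 and 1 peaks, and Dancr 0, 0 and 2. Member peaks were carried by 5 of the 11 names listed for growth control, 6 of the 18 for cytoplasmic and developmental RNAs and 5 of the 16 for kidney and fibrosis. Some RNAs are listed under more than 1 name. Tug1, on each of these lists, had 1, 1 and 3 peaks of other classes.

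Several genes carried many peaks. Gm8995, a pseudogene on chromosome 7, had 7, 17 and 11 member peaks over its span chr7:106504239-106511671, at 1.19, 5.01 and 5.21 FPKM. Its strongest had fold enrichment 99.5, 36.4 and 41.2. That peak was, in the authors' deposited table, lower in glucose than in control cells, with a log2 fold change of -1.06 and an adjusted p of 3.98e-11. Olfr1372-ps1 followed with 9, 11 and 9 peaks, and E130317F20Rik with 9, 7 and 5 at 0.147, 0.711 and 0.685 FPKM. 9130208D14Rik had 5, 8 and 5, AW011738 6, 5 and 6, Zfp862-ps 7, 7 and 3, and E430024I08Rik 5, 7 and 4. The count per gene is inflated by double listing, since 10.6% of control members overlapped another member of the same list on the same strand.

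The share of members over a changed peak was below that of all peaks. Of 2597 members of the control and sh-METTL3 lists, 44 (1.69%) overlapped a peak that was higher in sh-METTL3 at an adjusted p under 0.05 in the authors' deposited table, and 20 (0.770%) one that was lower. The shares over all peaks of the lists were 5.84% and 1.87%. For glucose against control 145 of 2720 members (5.33%) overlapped a higher and 114 (4.19%) a lower peak of the authors' deposited table, against 12.0% and 9.74% of all peaks. For glucose against sh-METTL3 72 of 2676 (2.69%) overlapped a higher and 63 (2.35%) a lower peak, against 5.02% and 6.01%. The comparisons share lists, so they are not independent of each other. The highest unadjusted p listed was 0.0490, so members without an entry are not shown to be unchanged.

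Counted as rows of the authors' deposited table at an adjusted p under 0.05, 47 noncoding exonic peaks were higher and 19 lower in sh-METTL3 than in control cells. The higher ones made up 71.2% (59.4 to 80.7), and 76.1% over all classes. At the same threshold the authors' deposited table for glucose against control gave 138 higher and 106 lower, or 56.6% higher against 55.5% over all classes. For glucose against sh-METTL3 it gave 67 and 61, or 52.3% against 45.6%. The share over all classes lay inside the members' interval in each comparison.

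In sh-METTL3 against control cells the highest in the authors' deposited table were Capza1-ps1 (log2 fold change 2.12, adjusted p 1.23e-08), Gm25432 (2.07, 0.00363), Gm5641 (1.95, 5.75e-10), Rpl17-ps3 (1.87, 0.00603) and Gm10076 (1.59, 3.09e-10). The lowest after Gm7292 in the authors' deposited table were Gm15590 (-3.33, 3.98e-27), 6720427I07Rik (-3.04, 0.00224), Gm6793 (-2.41, 1.26e-23) and Gm50431 (-1.71, 9.33e-05). The Gm5641 peak had no control entry at that place and 20.8 and 150 in the other lists. Gm15590 had fold enrichment 13.3, 1.19 and 11.1 in the 3 lists, so its sh-METTL3 value stood apart. In glucose against sh-METTL3 cells it was higher in the authors' deposited table, with 3.22 and an adjusted p of 3.16e-32.

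In glucose against control cells the highest of the authors' deposited table were Hmgb1-ps2 (3.48, 7.94e-79), 1700016A09Rik (3.41, 0.0178), Gm10132 (3.35, 1.58e-16), Gm9242 (3.32, 0.0257) and Zmiz1os1 (3.22, 0.0148). The lowest beside Gm7292 were, in the authors' deposited table, Gm12623 (-5.34, 0.0269), Gm10231 (-4.01, 0.00398), Gm50431 (-2.42, 0.0123) and Gm20949 (-2.22, 0.0347). Gm10231 had fold enrichment 70.8 in the control list and no peak in the other lists, while its RNA stood at 46.7, 24.1 and 20.6 FPKM. In glucose against sh-METTL3 cells the authors' deposited table also gave 4732471J01Rik (3.29, 0.0417), Hmgb1-ps2 (3.09, 5.01e-39), Gm47428 (3.04, 5.5e-09) and 1700016A09Rik (2.71, 0.0309) as highest. The lowest after Zxda in the authors' deposited table were 1700016B15Rik (-4.43, 0.00676), 2810047C21Rik1 (-4.26, 0.0437), Gm14414 (-3.81, 0.00589) and Ccdc142os (-3.29, 0.00269).

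RNA of the host genes was examined as the log2 ratio of FPKM + 1, over genes with a mean of at least 1 FPKM. Of 1994 host genes 1796 were in the RNA table and 426 passed that filter. In sh-METTL3 against control 40 (9.39%) were higher by 2-fold or more and 70 (16.4%) lower by as much, against 11.4% and 8.01% of all genes. In glucose against control the counts were 21 (4.93%) and 45 (10.6%), against 8.25% and 3.68%. With the all-gene median of 0.16 subtracted they were 10 and 64, and on counts scaled to library size alone 35 and 44. In glucose against sh-METTL3 they were 7 and 12, against 2.81% and 1.85%. The host genes' median log2 ratios were -0.06, -0.20 and -0.02, and those of all genes 0.10, 0.16 and 0.06. Pseudogenes, whose values are uncertain, made up 275 of the 426 hosts. Of these pseudogenes 21 were higher and 36 lower in sh-METTL3 against control. In glucose against control 14 and 13 were, and in glucose against sh-METTL3 4 and 6. Noncoding genes at this level without any member peak were lower in sh-METTL3 in 33 of 117 cases (28.2%) and those with one in 31 of 145 (21.4%). In glucose against control the shares were 26.5% and 19.3%.

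Among single hosts, Gm10382 had 0.0897 of the control share of counts in sh-METTL3 cells (exact 95% interval 0.0759 to 0.105) and Snhg16 had 0.153 (0.140 to 0.166). The mitochondrial ribosomal RNA mt-Rnr1 was at 0.136 and 0.160 of the control in the sh-METTL3 and glucose libraries. The pseudogene Gm12183 was at 3.67 (3.40 to 3.96) and 2.22 (2.05 to 2.41), and Brip1os, antisense to the helicase gene Brip1, at 2.59 (2.48 to 2.72) and 2.31 (2.20 to 2.42). Gm10705 was at 8.56 in glucose against sh-METTL3 (lower bound 7.37). The pseudogenes Gm28439 and Gm28661 lie close together on chromosome 1 and were at 2.82 and 2.38 in sh-METTL3 against control.

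Host RNA was also read for genes with a called peak. Of the 38 host genes with a higher peak in sh-METTL3 against control in the authors' deposited table, 22 passed the RNA filter, and 4 were at least 2-fold higher and 4 lower, against 11.4% and 8.01% of all genes. Of the 18 with a lower peak, 13 passed it, with 3 higher and 2 lower. Of the 117 genes with a higher peak in glucose against control in the authors' deposited table, 61 passed it, with 3 higher and 12 lower, against 8.25% and 3.68% of all genes and 4.93% and 10.6% of all tested hosts. Of the 94 with a lower peak, 42 passed it, with 6 higher and 3 lower. The peak values are ratios to input RNA, and the input values per peak were not analysed here.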

How the data were processed

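Per the labels' protocols, poly(A) RNA was fragmented, enriched with an m6A antibody, and sequenced in strand-marked paired libraries. The submitters' processing notes name HISAT2 2.0.4 and fastp 0.19.4, HOMER 4.10, StringTie 2.1.2 and edgeR 4.1, with no role for any, and list the human build GRCh38. A peak caller is not named in the sources used here. Of 1212 host genes with a RefSeq symbol, 1211 overlapped that gene in mouse build GRCm38.p6.

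The deposited peak lists give, per the file headers, fold enrichment as a ratio, and the log10 of a p-value before and after adjustment. Log2 fold changes with raw and adjusted p-values stand in the authors' differential tables. The one between both virus groups was deposited with sh-METTL3 over glucose, and its signs were turned here. The deposited RNA table holds FPKM and whole-number counts per gene. Starts were deposited counting from 0 (2644 control peaks began 1 base before their gene and 2 at it) and were raised by 1. No per-sample column (0) went unused.

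Members, gene lists and the naming rule were chosen with earlier results of these data known. The rule names the 5 most enriched members per list at an adjusted p under 0.05, the 10 genes with most members, listed noncoding RNAs with a member, the 5 highest and 5 lowest differential peaks per table and the 5 highest and lowest hosts by RNA at a mean of at least 5 FPKM, of which examples are printed; the analyses of opposite strands, hosts with few counts and recurring values, and the sequences shown, were chosen after values were seen. Peaks ran from first to last base, introns included. Host types come from the transcript types in the RNA table. A gene with any pseudogene type was counted as a pseudogene, even where a coding type was also listed. RNA ratios used log2(FPKM + 1), and shares have 95% Wilson intervals, which treat peaks as independent. No p-value was computed, since no condition had replicate values. No genome was given, so motifs were searched in RefSeq start windows (250 bases before and 50 after the start) instead of the planned peak centres. Python 3.11.15, pandas 2.3.3, numpy 2.4.6, scipy 1.17.1 and matplotlib 3.10.9 were used, and the counting steps were tested on simulated data.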

Additional observations from a re-analysis of the deposited data

How the results depend on the processing

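With an adjusted p under 0.05 required, noncoding exons held 7.93%, 7.48% and 6.29% of the control, sh-METTL3 and glucose peaks. With fold enrichment 4 or more at an adjusted p under 0.001 the shares were 7.40%, 6.84% and 5.77%, and by genes 12.5%, 12.4% and 11.5%. The order of the lists was the same under each. The median fold enrichment at an adjusted p under 0.05 was 9.57 in the control list and 8.06 in the sh-METTL3 list. Matching from control to sh-METTL3, control to glucose, sh-METTL3 to control, sh-METTL3 to glucose, glucose to control and glucose to sh-METTL3 was 45.0%, 37.4%, 43.7%, 40.5%, 38.9% and 43.4% when 50% of both peaks had to overlap. It was 85.7%, 75.0%, 84.2%, 78.7%, 73.9% and 78.4% for peaks at an adjusted p under 0.05, and 95.5%, 84.9%, 95.0%, 89.6%, 89.3% and 92.4% at the stricter setting. Requiring a noncoding exonic partner, or a span of at most 5000 bases (chosen after seeing the data), left all 6 shares inside their intervals. In the authors' deposited tables, with no adjusted p required, 97 peaks were higher and 50 lower in sh-METTL3 against control, and 103 were higher in glucose against sh-METTL3. With a log2 fold change of at least 1 as well, 12 and 8, 69 and 42, and 30 and 23 were higher and lower in sh-METTL3 against control, glucose against control and glucose against sh-METTL3. With a pseudocount of 0.1, 63 host genes were higher in sh-METTL3 against control, 51 higher and 70 lower in glucose against control, and 15 higher and 26 lower in glucose against sh-METTL3. The counts 10 (median subtracted) and 35 (counts scaled to library size) for higher genes in glucose against control, 11 higher without a filter and 20 lower on counts scaled to library size in glucose against sh-METTL3 also moved. GGACT in covered stretches of at least 50 bases, chosen after seeing the data, was in 20.2% of sh-METTL3 and 15.5% of glucose windows. The cause of these shifts was not tested, apart from fewer or shorter features entering by construction.

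Exon blocks of peaks were not used because the files give first and last bases alone, and motif searches in whole peaks were not run for lack of a genome. Leaving out replicates was not possible, since each condition has 1 list and 1 RNA column. No paired analysis was possible because the deposited columns carry no replicate numbers. The members' hosts had a median under 1 FPKM in each type, except pseudogenes in the sh-METTL3 and glucose libraries. The part of sequencing depth in the results was not tested.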
